A study of Mus musculus with 6 samples.

Results

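The cyclin-dependent kinase (CDK) inhibitor genes are 8 of the 41126 genes in the all-gene expression table of a study of β-catenin stabilization in neonatal mouse dermal fibroblasts. They were taken by name: the 3 Cip/Kip genes Cdkn1a, Cdkn1b and Cdkn1c, the 4 Ink4 genes Cdkn2a, Cdkn2b, Cdkn2c and Cdkn2d, and Cdkn3. All 8 were measured in every library and passed the filter on low counts, which left 15462 genes to be tested.

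CDKs bound to cyclins drive the cell cycle by phosphorylating the retinoblastoma protein and its relatives, which frees E2F factors to switch on S phase genes. Ink4 proteins bind CDK4 and CDK6 and keep D cyclins from activating them, while Cip/Kip proteins bind whole cyclin and CDK complexes and inhibit CDK2 most strongly. Cdkn3 is different in kind: it encodes a phosphatase that removes the activating phosphate from CDKs, and its transcript is itself made mostly by dividing cells. In cultured fibroblasts, p16Ink4a, p19Arf, p15Ink4b and p21 are the inhibitors best known from senescence and p27 and p57 from quiescence and differentiation.

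RNA was sequenced from 3 Control and 3 GOF (gain of function) cultures, numbered 0 to 2 in each group. Every culture was grown from whole ventral skin of mice of mixed CD1 and C57Bl6 strain at postnatal day 4, in medium with serum, and was infected in medium without it. GOF cultures are labelled AdCre and Ctnnb1{delta}ex3/+: adenoviral Cre removed the third exon of 1 Ctnnb1 allele, which leaves a β-catenin that is not degraded. Control cultures are labelled AdGFP and +/+, received an adenovirus that expresses GFP, and according to the study's methods carry the same unrecombined Ctnnb1 allele. Virus and β-catenin allele therefore differ together and cannot be told apart. The protocol field gives Cre adenovirus at 366 to 500 infectious particles per cell for 6 h for every culture, Controls included, which goes against the AdGFP label of the Controls. The study's methods give the GFP adenovirus at 366. By the study's account, RNA was collected days after infection and not at the end of these 6 h. The 6 cultures came from 4 animals, and 2 animals gave a culture to each group: the animal of Control 0 also gave GOF 2, and the animal of Control 2 also gave GOF 0.

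Libraries held 35980831 to 42834467 fragments. Of 5 listed targets of β-catenin 5 were higher in GOF, Tcf7 and Lef1 being tested only through the GOF libraries, and Axin2, a feedback inhibitor of the pathway, had 0.136 to 0.177 FPKM (fragments scaled to transcript length in kilobases and to library size) in Controls and 14.4 to 19.2 in GOF. Ctnnb1 itself, whose transcript stays when 1 exon is removed, had a log2 fold change of -0.05 (SE 0.15, adjusted p = 0.844). Fibroblast markers were present, with none of 10 under 1 FPKM in all libraries and a summed level of 3075 to 3920 FPKM in Controls and 2538 to 3119 in GOF, where Dcn (log2 fold change -1.67, adjusted p = 0.00584) and Col1a2 (-1.18, adjusted p = 0.0375) fell and Vim (0.70, adjusted p = 0.0280) rose. By contrast, 7 of 8 keratinocyte and 7 of 8 skeletal muscle markers were under 1 FPKM in every library. The summed level of the keratinocyte list was 0.482 to 0.664 FPKM in Controls and 2.97 to 6.87 in GOF, where Dsp (desmoplakin) made up the difference, and that of the muscle list was 22.9 to 27.3 and 137 to 172 FPKM, almost all of it Acta1 (skeletal muscle actin). The endothelial list (3 of 6 genes under 1 FPKM) summed to 4.38 to 4.50 and 2.71 to 6.59 FPKM, and the macrophage list (3 of 7) to 13.3 to 22.8 and 10.4 to 28.8 FPKM. Of these, Kdr (1.77, adjusted p = 0.0110) and Csf1r (1.52, adjusted p = 0.00186) rose and Tek (-2.27, adjusted p = 0.0190) fell. Their part in the results on the CDK inhibitors was not tested. In cultures measured as a whole, fewer cells of a type and less RNA per cell cannot be told apart.

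The CDK inhibitors moved in both directions. Of the 8 genes, 6 passed the test at an adjusted p under 0.05 (edgeR's quasi-likelihood test, Benjamini-Hochberg adjustment over all genes tested), where 21.2% of all genes tested passed. Cdkn1a and Cdkn2b were higher in GOF, a direction that 11.1% of all genes tested took, and Cdkn1b, Cdkn1c, Cdkn2c and Cdkn3 were lower, as were 10.2% of all genes tested. All 6 changed by more than 2-fold, where 12.3% of all genes tested passed and also did so. Cdkn2a, with every GOF library above every Control, and Cdkn2d, with every GOF library below, did not pass. For 8 of 8 genes every library of one group lay above every library of the other in FPKM, a separation that 39.5% of all genes tested showed. An exact permutation test of 3 against 3 libraries cannot give a two-sided p below 0.1, which is the value that each of the 8 genes gave.

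**Figure D1:**
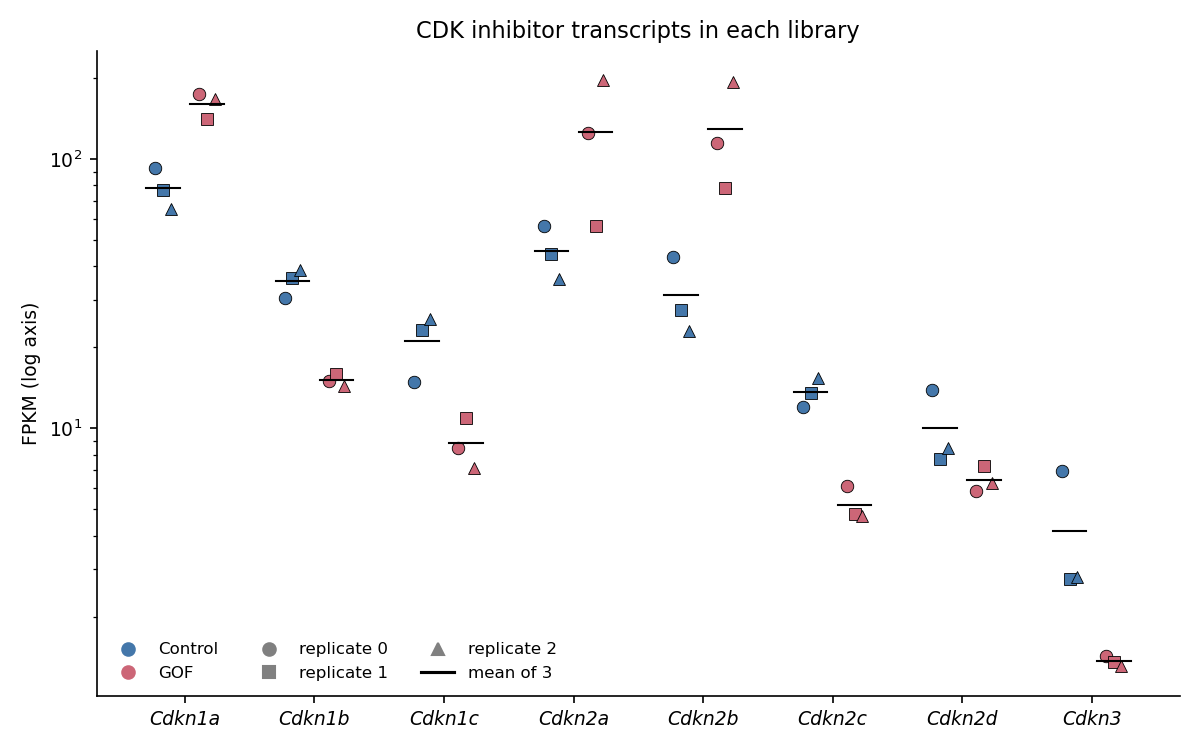
FPKM (log axis) of each CDK inhibitor in the 3 Control and 3 GOF libraries, with symbols for the replicate number and a line for the mean of 3. No gene has overlapping groups in FPKM, but Cdkn2a in GOF 1 (56.6 FPKM) lies next to Control 0 (56.3 FPKM), and Control 0 stands apart for Cdkn3.

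Sequences upstream of the start sites are shown for the 3 start sites of the Cdkn2a and Cdkn2b pair, whose transcripts varied together over the libraries, and for Cdkn3, which varied with mitotic genes. They are RefSeq windows of GRCm38.p6 (the mm10 assembly), of up to 250 bases before the start site, trimmed where the annotation of the files puts an exon, and written 5′ to 3′ on the strand of the gene. Cdkn2a has 2 such windows because its transcripts start at 2 places 12.4 kb apart: the upstream one makes p19Arf, the downstream one p16Ink4a. The Cdkn2b start site lies 16.4 kb beyond the upstream one. Capitals mark the letters CTTTGA (Tcf/Lef core), TTCCCGC (E2F), TTTGAA (cell cycle homology region, CHR) and CCAAT, searched on both strands. The GC box letters GGGCGG were also searched, as were the TATA box letters TATAAA, and neither is marked.
Cdkn2a, p19Arf start, chr4:89294654-89294869, minus strand: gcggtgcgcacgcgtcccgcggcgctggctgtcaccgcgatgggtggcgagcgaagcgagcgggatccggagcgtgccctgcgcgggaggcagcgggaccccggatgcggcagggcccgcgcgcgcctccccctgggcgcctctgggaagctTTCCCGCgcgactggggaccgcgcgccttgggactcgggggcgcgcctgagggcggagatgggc
Cdkn2a, p16Ink4a start, chr4:89282193-89282442, minus strand: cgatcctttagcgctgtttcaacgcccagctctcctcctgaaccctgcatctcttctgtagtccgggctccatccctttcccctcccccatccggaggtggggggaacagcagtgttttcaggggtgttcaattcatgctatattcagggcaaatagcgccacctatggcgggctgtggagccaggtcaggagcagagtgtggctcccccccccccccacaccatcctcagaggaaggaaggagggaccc
Cdkn2b, chr4:89311040-89311282, minus strand: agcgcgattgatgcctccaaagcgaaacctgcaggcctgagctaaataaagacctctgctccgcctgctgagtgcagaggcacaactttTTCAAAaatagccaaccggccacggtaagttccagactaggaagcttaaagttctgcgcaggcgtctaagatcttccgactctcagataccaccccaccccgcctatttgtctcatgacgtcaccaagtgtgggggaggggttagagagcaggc
Cdkn3, chr14:46760291-46760540, plus strand: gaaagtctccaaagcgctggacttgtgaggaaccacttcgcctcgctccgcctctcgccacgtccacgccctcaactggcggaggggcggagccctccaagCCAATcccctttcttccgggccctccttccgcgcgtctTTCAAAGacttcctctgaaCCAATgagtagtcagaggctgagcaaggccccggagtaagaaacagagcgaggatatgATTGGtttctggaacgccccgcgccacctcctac

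Shares and matches are those of the full 250 bases before each start site, also where the printed sequence is trimmed. The p19Arf window had 78.4% G and C, 1 E2F match, 98 bases before the start site, and 2 GC box matches. The p16Ink4a window had 60.0% and no match to any of the searched motifs. The Cdkn2b window held 1 CHR match, 161 bases before the start. The Cdkn3 window held 3 CCAAT matches, at 149, 92 and 34 bases before the start, and 1 GC box match. It also held a CHR and a Tcf/Lef core match that share letters, at 111 and 110 bases. Of 32851 RefSeq windows of 250 bases, 33.8% held CCAAT, 16.0% the CHR letters, 13.8% the Tcf/Lef core 3.82% the E2F letters, 32.7% the GC box and 12.4% the TATA box, so single matches to the first 3 are common. None of the 10 windows of the 7 members in the RefSeq table other than that of Cdkn3 held the Tcf/Lef core, and an E2F match stood in those of Cdkn2a (p19Arf) and Cdkn2c (25 bases before the start). A match is a description of the letters and not a binding site.

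Cdkn1a encodes p21, the inhibitor that p53 induces after DNA damage. Its level was 92.9, 77.1 and 65.3 FPKM in Controls 0, 1 and 2 and 175, 141 and 168 FPKM in GOF 0, 1 and 2. The lowest GOF library was 1.52 times the highest Control. The means were 78.5 ± 13.9 and 161 ± 17.9 FPKM (SD, n = 3 each), and the log2 fold change was 1.06 (SE 0.17, adjusted p = 0.00537). The cultures from a shared animal differed 2.67-fold and 1.81-fold in the same direction. Cdkn1a had the highest mean FPKM of the 8 transcripts in both groups, but in GOF 2 Cdkn2a (197 FPKM) and Cdkn2b (194 FPKM) were higher.

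Cdkn1b encodes p27, which holds cells in quiescence. Control levels were 30.5, 36.1 and 38.9 FPKM, and GOF levels were 15.0, 15.9 and 14.4 FPKM. The GOF libraries lay close together, with a coefficient of variation of 4.98%, and the lowest Control was 1.92 times the highest GOF library. The log2 fold change of -1.27 (SE 0.13) had the smallest adjusted p of the 8 genes, 0.00101. Within the shared animals the GOF culture held 0.387 and 0.472 of the Control level.

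Cdkn1c encodes p57, an inhibitor expressed from the maternal allele of an imprinted domain. It had 14.9, 23.2 and 25.5 FPKM in Controls and 8.48, 10.9 and 7.13 FPKM in GOF, a log2 fold change of -1.30 (SE 0.21, adjusted p = 0.00556). Control 0 was the low library of its group and was 1.36 times the highest GOF library. The ratio of the cultures from a shared animal was 0.333 and 0.478.

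Cdkn2b encodes p15Ink4b, a CDK4 and CDK6 inhibitor that TGF-β induces in epithelial cells. It had 43.5, 27.5 and 23.1 FPKM in Controls and 115, 78.4 and 194 FPKM in GOF. Every GOF library was above every Control, the nearest by 1.80-fold, but the GOF libraries spread over a wide range (129 ± 58.9 FPKM, SD, n = 3). The log2 fold change of 2.01 (SE 0.39, adjusted p = 0.0105) was the largest of the 8 genes. Within the shared animals Cdkn2b was 4.99-fold and 4.46-fold higher in the GOF culture.

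Cdkn2a encodes both p16Ink4a, a CDK4 and CDK6 inhibitor, and p19Arf, which stabilizes p53 by binding MDM2, and the table gives 1 value for both transcript classes. It had 56.3, 44.7 and 35.8 FPKM in Controls and 125, 56.6 and 197 FPKM in GOF. GOF 1 was level with Control 0 (1.004-fold), and the coefficient of variation in GOF was 55.7%. The log2 fold change of 1.50 (SE 0.48, adjusted p = 0.0627) did not pass. In both animals that gave a culture to each group, the GOF culture held more, by 3.49-fold and 3.50-fold. With the animal as a block the log2 fold change was 1.87 (adjusted p = 0.000449). That fit rests on these 2 animals alone and takes no account of Control 1 and GOF 1, whose animals gave 1 culture each. Leaving out GOF 1 gave 1.88 (adjusted p = 0.0145) and leaving out GOF 2 gave 0.89 (adjusted p = 0.152). The FPKM of Cdkn2a per fragment was scaled for each library and taken relative to the mean of the Controls. It ran from 0.874 in GOF 2 to 1.11 in GOF 1, the widest range of the 8 genes. Which transcript class the fragments came from was not analysed here.

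Cdkn2c encodes p18Ink4c. Its Control levels were 12.0, 13.5 and 15.5 FPKM and its GOF levels 6.10, 4.81 and 4.72 FPKM. The lowest Control was 1.97 times the highest GOF library, and the log2 fold change was -1.48 (SE 0.18, adjusted p = 0.00182). The cultures from a shared animal gave 0.395 and 0.393 of the Control level. Cdkn2c fell while its relative Cdkn2b rose.

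Cdkn2d encodes p19Ink4d. It had 13.9, 7.71 and 8.48 FPKM in Controls and 5.88, 7.24 and 6.25 FPKM in GOF. Control 1 was 1.06 times GOF 1, so that the groups only just did not overlap. The log2 fold change was -0.67 (SE 0.26, adjusted p = 0.105) and was -0.34 (adjusted p = 0.160) without Control 0.

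Cdkn3 was the scarcest of the 8 transcripts. It had 6.94, 2.75 and 2.80 FPKM in Controls, from 199, 92 and 91 fragments, and 1.43, 1.36 and 1.31 FPKM in GOF, from 47, 44 and 41 fragments. Control 0 stood above the other Controls, and the GOF libraries were nearly equal (coefficient of variation 4.40%). The log2 fold change was -1.63 (SE 0.42, adjusted p = 0.0301), and -1.03 (adjusted p = 0.0281) without Control 0. Leaving out GOF 0, GOF 1 or GOF 2 ended the call, with adjusted p of 0.0980, 0.0826 and 0.0751.

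**Figure D2:**
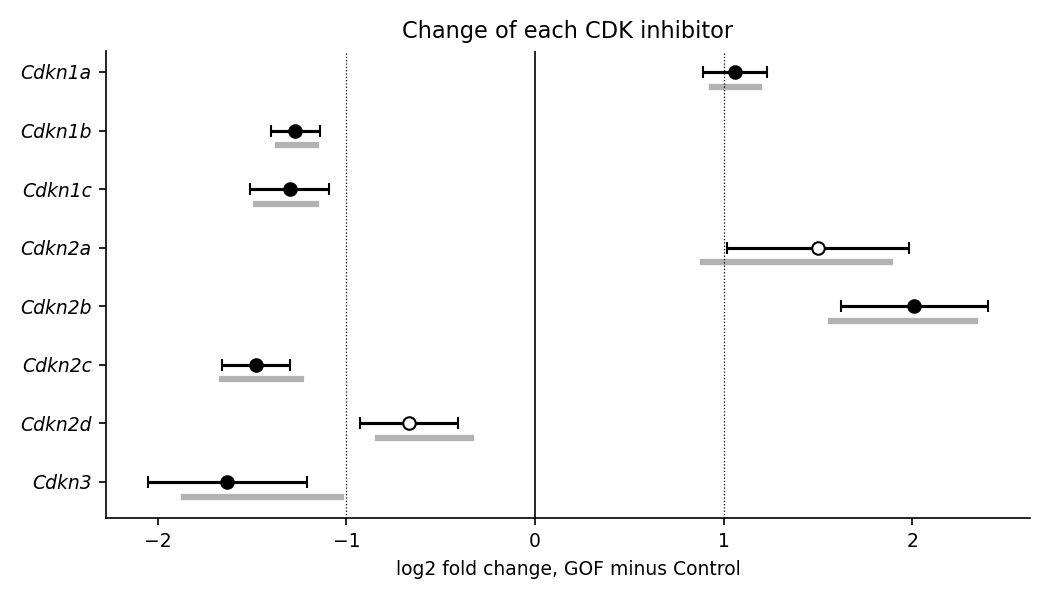
Log2 fold change of GOF minus Control for each gene, with the SE as error bars; filled points passed at an adjusted p under 0.05, dotted lines mark 2-fold, and grey bars give the range over 15 alternative settings. Cdkn1a (1.06) and Cdkn2b (2.01) passed on the higher side, Cdkn1b, Cdkn1c, Cdkn2c and Cdkn3 (-1.27 to -1.63) on the lower side, and no grey bar crosses 0.

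The libraries varied together over the genes. Control 0 was the Control nearest to the GOF group for 6 of the 8 genes, with the highest Cdkn1a, Cdkn2a and Cdkn2b and the lowest Cdkn1b, Cdkn1c and Cdkn2c of its group, but also with the highest Cdkn2d and Cdkn3. GOF 1 was the GOF library nearest to Controls for 6 of the 8. Cdkn2a and Cdkn2b ranked the 3 libraries of each group identically, with GOF 2 highest and GOF 1 lowest. The ratio of Cdkn2a to Cdkn2b was 1.30, 1.62 and 1.55 in Controls and 1.08, 0.722 and 1.02 in GOF, so that Cdkn2b gained on Cdkn2a in every GOF library.

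On the FPKM scale, which can be compared between genes, the order in Controls was Cdkn1a, Cdkn2a, Cdkn1b, Cdkn2b, Cdkn1c, Cdkn2c, Cdkn2d and Cdkn3, and from Cdkn2a down to Cdkn2d each gene's range overlapped that of the next. In GOF the order was Cdkn1a, Cdkn2b and Cdkn2a, whose ranges overlapped in sequence, then, after a gap from a lowest Cdkn2a value of 56.6 to a highest Cdkn1b value of 15.9 FPKM, Cdkn1b, Cdkn1c, Cdkn2d, Cdkn2c and Cdkn3. Cdkn1c and Cdkn2d overlapped, as did Cdkn2d and Cdkn2c. The 3 most abundant inhibitors of GOF cultures were the 3 whose mean level was above that of Controls, Cdkn2a without passing the test, and the other 5 had lower means.

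The summed FPKM of the 8 genes was 271, 233 and 215 in Controls and 452, 316 and 593 in GOF. Cdkn2b took 12.9 ± 2.81% of the sum in Controls and 27.7 ± 4.36% in GOF, and Cdkn1b 15.0 ± 3.44% and 3.60 ± 1.32% (SD, n = 3 each), without overlap. The 4 Ink4 genes together took 41.7 ± 4.17% and 56.7 ± 10.7%, and the 3 Cip/Kip genes 56.7 ± 4.91% and 43.0 ± 10.6%, where the groups overlapped (exact permutation test of the Cip/Kip share, two-sided p = 0.2). Cdkn1a took 32.6 ± 2.03% and 37.2 ± 8.20%, with overlapping groups. The ratio of Cdkn1a to Cdkn1b, 2 members of 1 family, was 3.05, 2.13 and 1.68 in Controls and 11.6, 8.87 and 11.7 in GOF.

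**Figure D3:**
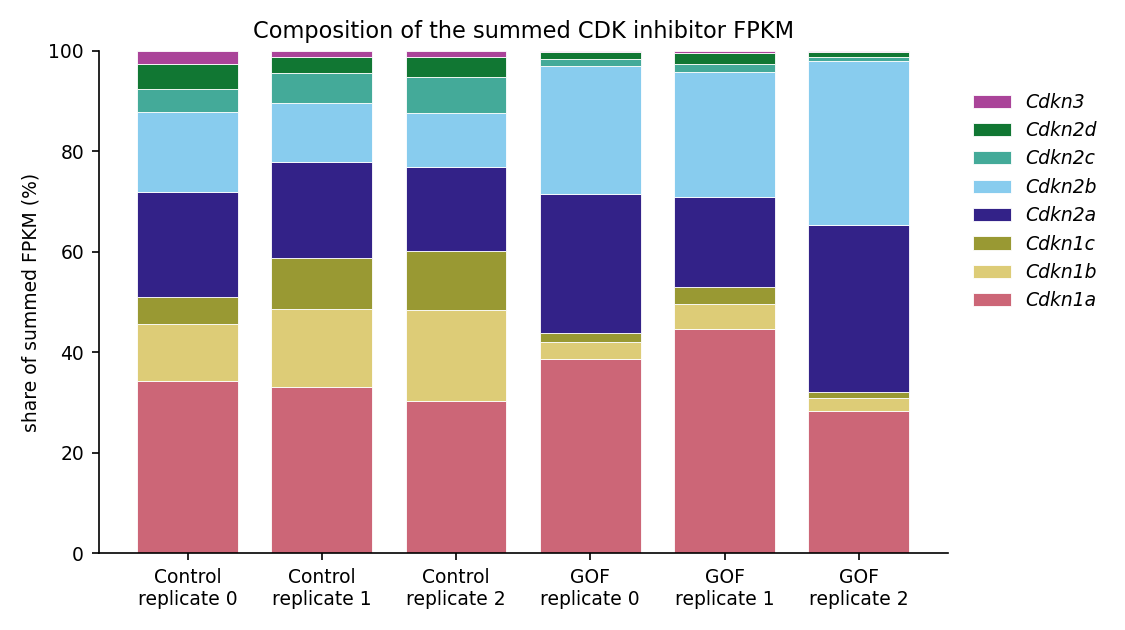
Share (%) of the summed FPKM of the 8 CDK inhibitors taken by each gene, stacked for each of the 6 libraries. The Cdkn2b part is 10.7 to 16.1% in Controls and 24.8 to 32.7% in GOF, and the Cdkn1b part is 11.3 to 18.0% and 2.43 to 5.03%.

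Of 12 CDKs and cyclins, the partners of the inhibitors, 1 rose and 5 fell, where 11.1% and 10.2% of all genes tested did so, with a median log2 fold change of -0.48 beside -0.02 over all genes tested. Ccnd1, one of the D cyclins that Ink4 proteins keep from activating CDK4 and CDK6, rose by 1.86 on the log2 scale (SE 0.34, adjusted p = 0.00877). It had 47.8, 32.1 and 29.6 FPKM in Controls and 143, 76.7 and 183 FPKM in GOF. Ccnd1 ranked the libraries of each group as Cdkn2a and Cdkn2b did. The D cyclins Ccnd2 (0.33, SE 0.19, adjusted p = 0.268) and Ccnd3 (-0.14, SE 0.11, adjusted p = 0.420) did not pass. Ccnd2 had higher means than Ccnd1 in both groups, 124 FPKM in Controls and 157 in GOF. Cdk4, the more abundant Ink4 target, fell from 330 ± 46.7 to 204 ± 27.7 FPKM (log2 fold change -0.76, SE 0.16, adjusted p = 0.0132). Cdk6 (0.43, SE 0.25, adjusted p = 0.261) and Cdk2 (-0.24, SE 0.16, adjusted p = 0.320) did not pass. Ccnb2 (-1.84), Ccnb1 (-1.53), Ccna2 (-1.04) and Cdk1 (-0.99), which serve S phase and mitosis, fell. Of 13 pocket protein and E2F genes, 2 rose and none fell in edgeR's test. At an unadjusted p under 0.05, 3 were higher and 2 lower, where 2728 and 2671 of the 15462 genes tested were. With DESeq2 1 was lower. E2f6, a repressor, rose from 17.5 ± 1.71 to 34.4 ± 1.53 FPKM (log2 fold change 0.96, adjusted p = 0.00178). Rb1 rose by fragments (log2 fold change 0.95, adjusted p = 0.00152), but its FPKM ranges overlapped (11.58 to 14.04 and 12.91 to 19.73).

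Of 20 genes of G2 and mitosis, 17 fell, where 10.2% of all genes tested did, and none was higher, also at an unadjusted p under 0.05. Aurka (-0.66, adjusted p = 0.167), Tpx2 (-0.55, adjusted p = 0.0774) and Cdca8 (-0.84, adjusted p = 0.0799) did not pass, and the median log2 fold change was -1.42. Mki67, the proliferation marker, had 6.89, 5.27 and 6.30 FPKM in Controls and 1.94, 1.97 and 2.05 FPKM in GOF. Plk1 (-1.44), Cenpe (-1.13) and Kif23 (-1.60), a mitotic kinase and 2 kinesins, were the others with the smallest adjusted p. Cdkn3, at -1.63, lay within the range of this list. The 3 genes whose pattern over the 6 libraries was nearest to that of Cdkn3, by the root mean square difference of centred log2(FPKM + 1) values among 11144 protein-coding genes, were Ube2c (0.067), Cenpa (0.107) and Birc5 (0.118), all of them mitotic. Ube2c shared the high value in Control 0, with 27.6, 13.9 and 13.6 FPKM in Controls and 8.52, 8.69 and 7.44 in GOF.

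The p53 list, to which Cdkn1a belongs by function, had 3 of 15 genes higher and 1 lower, with a median of 0.37. Of all genes tested, 11.1% were higher and 10.2% lower. At an unadjusted p under 0.05, 6 of the 15 were higher and 1 lower, where 2728 and 2671 of the 15462 genes tested were. Mdm2, the ubiquitin ligase that p53 induces and that degrades p53, rose by 1.39 on the log2 scale (SE 0.22, adjusted p = 0.00488), with 61.0, 69.1 and 63.8 FPKM in Controls and 152, 109 and 225 FPKM in GOF. Perp (3.14), a desmosome protein and p53 target, and Ccng1 (1.08) rose, while Sesn1 (-1.09) fell. All 3 that rose were highest in GOF 2 and lowest in GOF 1, as Cdkn2a was; for Cdkn1a GOF 0 was highest. Trp53 had 7.18, 10.4 and 12.6 FPKM in Controls and 25.3, 19.4 and 8.14 FPKM in GOF, with overlapping groups (log2 fold change 0.75, SE 0.37, adjusted p = 0.199).

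In 3 lists of genes known to act on the inhibitors, 2 of 13, 2 of 19 and 4 of 15 genes passed, beside 21.2% of all genes tested. Of 13 tested genes of p27 turnover, Fbxw7 rose (0.96, adjusted p = 0.0162) and Cks1b, the cofactor that brings p27 to its ligase, fell (-0.65, adjusted p = 0.0252), while Skp2, the receptor of that ligase, had a log2 fold change of 0.05 (SE 0.17, adjusted p = 0.859). Of 19 Polycomb and other regulators of the Ink4 locus, Kdm2b (-0.54, adjusted p = 0.0445) and Jdp2 (-0.71, adjusted p = 0.0455) fell and none rose in edgeR's test. At an unadjusted p under 0.05, 6 of the 19 were lower and 2 higher, where 2671 and 2728 of the 15462 genes tested were. With DESeq2 2 were higher. Ezh2, the Polycomb methyltransferase, had 6.03 ± 0.628 FPKM in Controls and 3.87 ± 0.443 in GOF, but by fragments -0.47 (SE 0.18, adjusted p = 0.101). Of 15 genes of TGF-β signalling and Myc, which control Cdkn2b and Cdkn1a, Tgfb2 (2.73), Smad7 (0.83) and Tgfbr2 (0.71) rose and Tgfbr1 (-0.71) fell. Tgfb2 had 2.25 to 3.04 FPKM in Controls and 17.3, 11.4 and 27.4 FPKM in GOF 0, 1 and 2. Myc, a repressor of both inhibitors, had a log2 fold change of -0.03 (SE 0.27, adjusted p = 0.946).

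**Figure D4:**
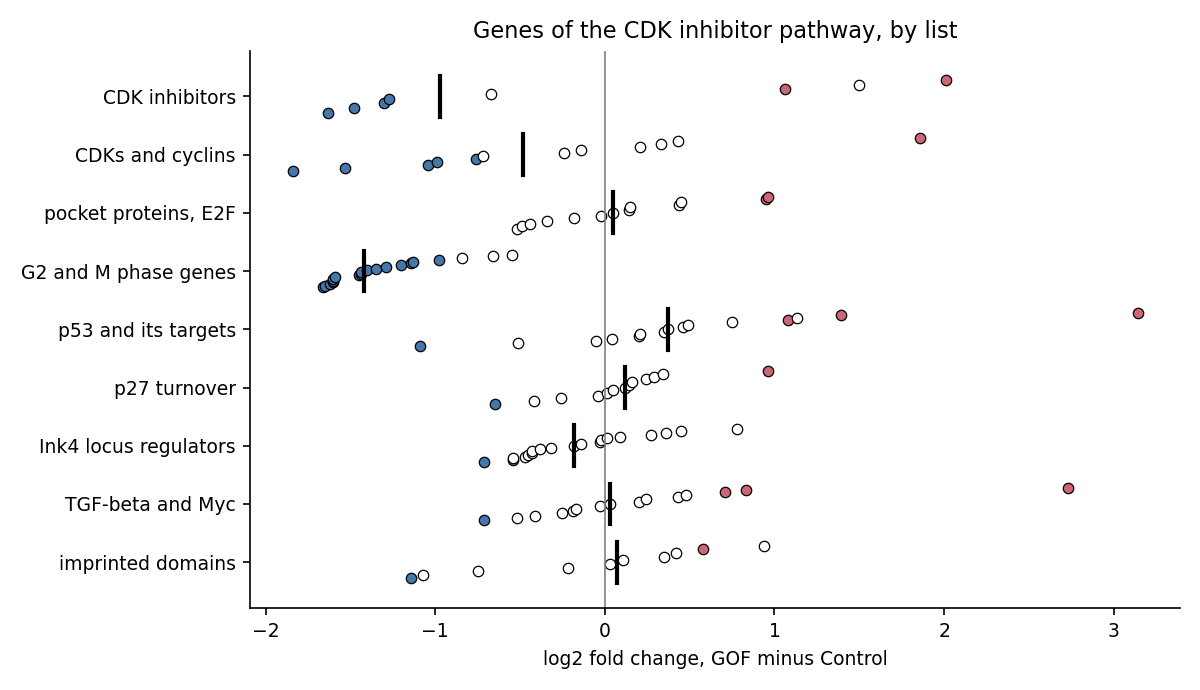
Log2 fold change of GOF minus Control for every tested gene of 9 lists, with red points for genes that passed on the higher side, blue on the lower side, open points for those that did not pass, and a bar for the median. The mitotic list lies wholly below 0 with a median of -1.42, while the CDK inhibitors split to both sides.

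The 5 tested neighbours of each gene of the Ink4 pair were mostly higher in GOF. Positions are those of the matched GENCODE genes on mm10. Within 250 kb of the members, 106 other genes were annotated and 58 tested. Of these 58, 9 were higher and 6 lower, beside 11.1% and 10.2% of all genes tested. The counts hold genes tested only through the group where they were high. These were 4930539E08Rik and Wincr2 among the higher and Pi16 and 9630013D21Rik among the lower. Around Cdkn2a (chr4:89274471-89294653, minus strand) 5 of 5 tested genes were higher, with Cdkn2b (chr4:89306299-89311039) among them, and around Cdkn2b 4 of 5 were, the exception being Cdkn2a itself (adjusted p = 0.0627). Both counts hold the same 3 noncoding genes and Mtap, and Wincr2 reached the level of the filter on low counts in 0 Control and 3 GOF libraries, so that it could be tested only because it was high in GOF. Wincr1 (Gm12603), a long noncoding RNA gene 190 kb away on the other strand, had 1.24, 0.607 and 0.592 FPKM in Controls and 12.3, 14.9 and 14.2 FPKM in GOF (log2 fold change 4.18, SE 0.31, adjusted p = 0.000295). Wincr2 (Gm12606), a noncoding RNA gene on the same strand as Cdkn2a and 1068 bases past its end, rose by 3.27 on the log2 scale (SE 0.58, adjusted p = 0.00788), from 7, 3 and 2 fragments to 34, 27 and 65. Mtap, a methionine salvage enzyme, rose by 1.39 (SE 0.14, adjusted p = 0.000933), from 29.9, 26.7 and 26.7 to 71.0, 58.9 and 91.5 FPKM, and the noncoding Gm12602 by 2.60.

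The region was widened to 1000 kb on either side, and divided at Wincr1, after these values were seen, so its counts are a description. It held 15 tested genes besides Cdkn2a, of which 6 were higher and 1 lower. All 6 that were higher lay from Wincr1 onwards, where Cdkn2a was the one other tested gene, and the 9 tested genes before Wincr1 held none that was higher and 1 that was lower, Hacd4 (-0.81, adjusted p = 0.0161). Dmrta1, a transcription factor gene 385 kb beyond Cdkn2a, had 0 fragments in all 3 Controls and 37, 17 and 109 in GOF, at least 16.6-fold higher when 3 fragments per Control library are taken as the limit, and like Wincr2 it was tested only through the GOF libraries. Wincr2, Dmrta1, Mtap, Cdkn2a and Cdkn2b were highest in GOF 2 and lowest in GOF 1, whereas Wincr1 was highest in GOF 1.

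**Figure D5:**
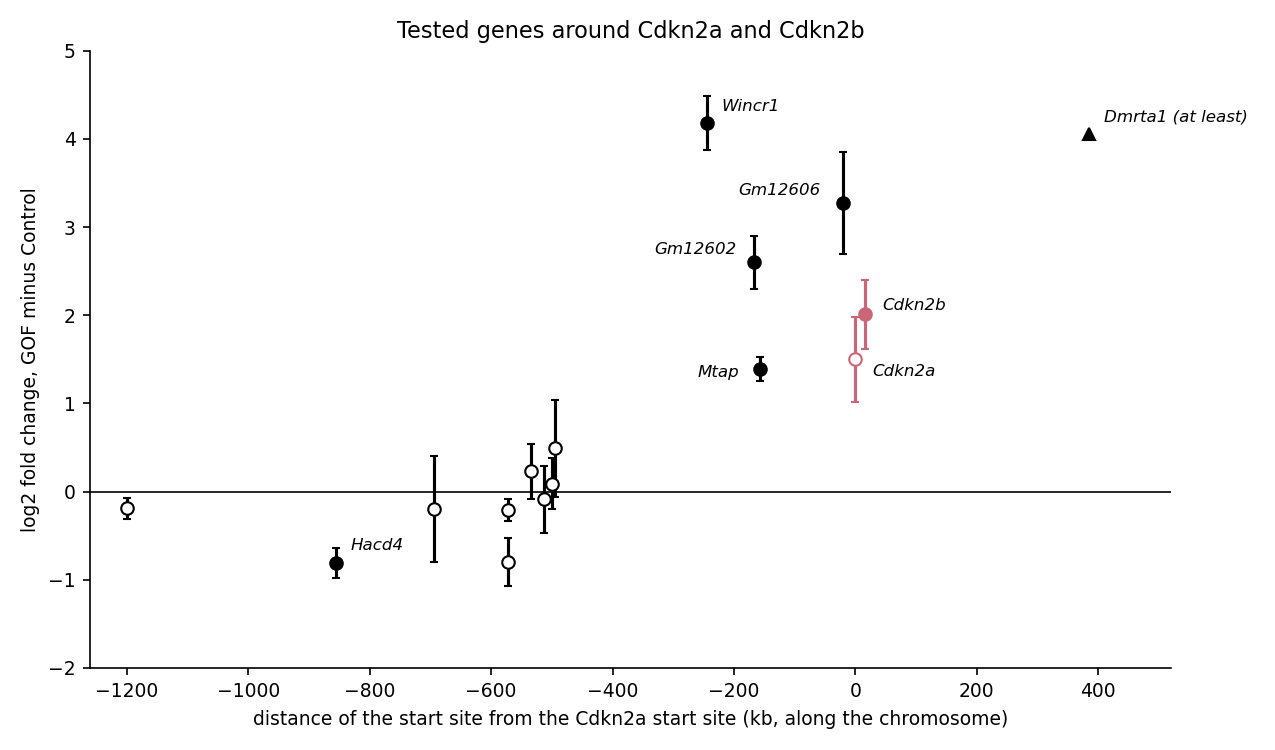
Log2 fold change (SE as error bars) of each tested gene within 1000 kb of Cdkn2a, by the distance in kb of its start site from that of Cdkn2a; filled points passed at an adjusted p under 0.05, the members are red, and the triangle is a lower bound for Dmrta1. All 6 filled points on the higher side lie at or after Wincr1, a dividing point chosen after the values were seen. Hacd4 (-0.81) is the one filled point below 0.

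The other members had mixed neighbours. Lockd, a noncoding RNA gene 3579 bases beyond Cdkn1b on the same strand, had 6.14, 4.30 and 3.54 FPKM in Controls and 0.845, 1.22 and 0.937 FPKM in GOF (log2 fold change -2.23, SE 0.36, adjusted p = 0.00542). It was lower as Cdkn1b was, but among Controls it was highest in Control 0, where Cdkn1b was lowest. Apold1, 56.2 kb from Cdkn1b, rose by 1.35. Near Cdkn1a, 2 genes passed, each reaching the filter level in 3 libraries of 1 group: 4930539E08Rik rose by 3.10, from 0.0319 to 0.0514 FPKM in Controls to 0.346 to 0.445 in GOF, and Pi16, a fibroblast protease inhibitor gene, had a log2 fold change of -4.08, from 0.883 to 1.19 FPKM to 0.0468 to 0.0785. Next to Cdkn2c, 3.0 kb past its end on the same strand, lies 9630013D21Rik. This gene fell by 2.15 on the log2 scale, from 18, 23 and 25 fragments to 7, 5 and 3. It reached the filter level in 3 Control and 0 GOF libraries, so that it was tested only through the Controls, where it was high. Its FPKM ranges overlapped (0.187 to 0.574 and 0.0842 to 0.196) and the means differed 2.62-fold. Within 250 kb of Cdkn2d and Cdkn3 no gene passed with a change over 2-fold.

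Cdkn1c shares its imprinted domain with genes that rose, fell or did not pass. Of 10 tested genes of this and linked imprinted domains, 1 fell and 1 rose, beside 10.2% and 11.1% of all genes tested. Slc22a18, 12.7 kb from Cdkn1c and like it expressed from the maternal allele, fell by 1.14 on the log2 scale (adjusted p = 0.0230). Cars rose by 0.58 (adjusted p = 0.00781). Kcnq1ot1, the paternally expressed noncoding RNA that silences the domain in cis, had 0.373, 1.18 and 1.43 FPKM in Controls and 1.30, 0.501 and 0.788 FPKM in GOF, with overlapping groups (log2 fold change -0.22, SE 0.50, adjusted p = 0.788). Phlda2, maternally expressed, had 1 fragment in each Control and 10, 6 and 4 in GOF and was not tested. Tnfrsf23, 205 kb from Cdkn1c, rose by 2.46 (adjusted p = 0.000318).

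The genes nearest in pattern to the other members that passed were named by the same measure as for Cdkn3, over the 6 libraries, where the difference between the groups alone makes many genes alike. For Cdkn1a they were Tmcc3 (0.056), Ttc39b (0.094) and Sytl5 (0.098). For Cdkn1b they were Pygb (0.062), a glycogen phosphorylase, Stard10 (0.068) and Txnip (0.073), and for Cdkn1c they were Enpp3 (0.080), Cped1 (0.089) and Mex3a (0.109). For Cdkn2c they were Aoc3 (0.066), Htra3 (0.072) and Col16a1 (0.077), a collagen chain. Cdkn2b had no equally close match, with Lce1g (0.131), Nog (0.150), the BMP antagonist noggin, and Ildr2 (0.153) nearest. The 1 added to FPKM shrinks the changes of scarce genes in this measure. By fragments, Lce1g and Nog rose by 3.69 and 3.89 on the log2 scale, Ildr2 by 2.04 and Cdkn2b by 2.01. In Controls Lce1g had 18, 9 and 4 fragments and Nog 31, 13 and 6. Only in GOF did every library reach the filter level for these genes, so both were tested only through the GOF libraries. Nog had 0.119 to 0.664 FPKM in Controls and 4.42, 3.22 and 7.71 FPKM in GOF 0, 1 and 2, the same order of the GOF libraries as Cdkn2b.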

How the data were processed

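Libraries were made with a stranded kit from total RNA and sequenced on an Illumina HiSeq. The authors aligned reads with TopHat to mm10 and quantified genes with Cuffdiff; versions, and whether strand was used in counting, are not given in the sources used here. The all-gene table was used, and the table of noncoding RNAs was not used here. It holds, as deposited by the authors, estimated counts of fragments per gene and library and FPKM, which is normalized to transcript length and library size by Cuffdiff. In both tables together, 6 columns with a value for each library stayed unused.

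Estimated counts (4.95% of values differed from a whole number, with no tolerance) were rounded and tested with edgeR 4.0.16 in R 4.3.3: TMM normalization, filterByExpr, quasi-likelihood test of GOF against Control and Benjamini-Hochberg adjustment over 15462 genes. The design had no block, and 32 genes with a failed estimate were left out. A gene passed at an adjusted p under 0.05. FPKM values are given per library, with SD and exact permutation tests (SciPy 1.17.1), and describe levels; fold changes come from the counts. Alternatives used DESeq2 1.42.0 and limma 3.58.1 on log2(FPKM + 1) and log2(FPKM + 0.1). The fit was tested on simulated counts. Depth was 35980831 to 42834467 fragments per library.

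Symbols and positions came from GENCODE M21 on GRCm38, which matched 97.9% of gene identifiers. Promoter sequences came from RefSeq on GRCm38.p6 and equalled the genome. The 8 members, the gene lists and the tests were chosen with earlier results of these data known. Named were all members, label checks, up to 4 genes per list with the smallest adjusted p, genes set in advance (Ccnd1, Cdk4, Cdk6, Cdk2, Cdk1, Skp2, Trp53, Mdm2, Myc, Ezh2, Mtap, Dmrta1, Kcnq1ot1, Phlda2, Wincr1, Wincr2), genes within 250 kb that passed with a change over 2-fold, and the 3 genes nearest in pattern (mean FPKM of at least 1). Hacd4, Ccna2, Ccnd2, Ccnd3, Aurka, Tpx2 and Cdca8 lie outside this rule and were named after their values were seen. Same-numbered cultures came from different animals and did not deviate together (correlations of their deviations -0.410, 0.0539 and -0.441), while cultures of the same animal did (0.460 and 0.408). The cultures are replicates from 3 animals per group.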

Additional observations from a re-analysis of the deposited data

How the results depend on the processing

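Each of the 8 fold changes was recomputed under 15 alternatives: a replicate block (the label number, or the animal), scaling by library totals or upper quartiles, testing every gene or those of at least 1 FPKM in 3 libraries, DESeq2, limma with each pseudocount, and each library left out. All 120 values kept their direction and 112 their side of the threshold; between 5 and 7 genes passed. Cdkn1a, Cdkn1b, Cdkn1c, Cdkn2b and Cdkn2c passed in all 15 and Cdkn2d in none (adjusted p 0.0526 to 0.263). Cdkn2a passed with DESeq2 (1.51, adjusted p = 0.00441), without the filter (1.49, adjusted p = 0.0282), with a replicate block by animal (1.87, adjusted p = 0.000449) and without GOF 1. The block by animal also takes no account of GOF 1, the only culture of its animal. Leaving out 1 library moved the fold change of Cdkn2a between 0.89 and 1.88. Cdkn3 did not pass with a replicate block by label number (-1.49, adjusted p = 0.0623), nor without any one GOF library, which leaves its fold change between -1.86 and -1.03 over all libraries left out. The cause was not tested, beyond the smaller number of samples when a library is left out. The replicate block changed no other member's call.

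Of 270 counts over the gene lists, 227 stayed within 1.5 times. Counting fragments in place of FPKM, which favours long transcripts, moved 13 of 20 family shares by over 1 SD (Ink4 26.3% in Control and 41.7% in GOF). Dmrta1 and Wincr2 rest on few fragments, and Cdkn3 in GOF on 41 to 47.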
